A study of Mus musculus with 4 samples.

Results

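The nuclei described here were annotated by the authors as vasopressin neurons, 1182 of the 56386 annotated nuclei of a single-nucleus RNA sequencing study of the mouse hypothalamus. They were taken as every nucleus of the main neuronal cluster, Neurons_1 (35756 nuclei), whose sub-cluster name ends in "AVasopressin Neurons". The study compared wild-type (WT) mice with mice heterozygous for the R384C mutation of the thyroid hormone receptor TRα1 (TRα1+m), a mutation that lowers the affinity of the receptor for its hormone. All mice used for sequencing were adult males bred on the C57/BL6NCr background, and no sequenced group was treated with hormone. Their hypothalami were frozen after death by CO2 inhalation and cervical dislocation. Each of the 4 libraries held the pooled nuclei of 3 mice, and 2 experimental repeats gave a WT and a TRα1+m library each, so that n = 2 pools per genotype. The libraries are named WT 1, WT 2, TRα1+m 1 and TRα1+m 2 after the repeat. The mutation is carried by all cells of the animal, and the time of day at which the mice were killed is not given in the sources used here.

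Arginine vasopressin is made by distinct kinds of hypothalamic neurons. Magnocellular neurons of the paraventricular and supraoptic nuclei release it into the blood as the antidiuretic hormone, beside neighbours that make oxytocin. Small GABAergic neurons of the suprachiasmatic nucleus, the central circadian clock, release it within the brain, in a daily rhythm set by the clock proteins that bind E-box sequences, while a distinct group of suprachiasmatic neurons makes vasoactive intestinal peptide (VIP) and relays the light signal from the eye.

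The sub-cluster held 388 nuclei in WT 1, 254 in WT 2, 365 in TRα1+m 1 and 175 in TRα1+m 2. These nuclei carried 1286006, 1000115, 1138467 and 642594 UMIs (unique molecular identifiers, each counting a captured transcript) in the same order, and their median UMI counts were 2967, 3607.5, 2703 and 3346. No cell barcode of the sub-cluster was shared between libraries. The libraries of the 2 repeats stood apart, with 883 genes called between them. For this reason each comparison of genotypes is given also from a fit with the repeat as a block wherever that fit changed a call.

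As a share of Neurons_1, vasopressin neurons made up 4.06% in WT 1 (95% exact binomial interval 3.67 to 4.47), 2.90% in WT 2 (2.56 to 3.28), 3.44% in TRα1+m 1 (3.10 to 3.8) and 2.56% in TRα1+m 2 (2.20 to 2.97). The TRα1+m share was the lower one in each repeat, but the groups overlapped. The log2 difference between TRα1+m and WT was -0.21 (SE 0.479) in edgeR's quasi-likelihood test on numbers of nuclei, with an adjusted p of 0.985 over 14 sub-clusters. Without the library WT 1 the difference was 0.05. The intervals cover counting error only.

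The label was checked against Avp and against marker genes of the suprachiasmatic and magnocellular nuclei. By Avp level it held for the sub-cluster as a whole only against oligodendrocytes, which it exceeded in each library. The oxytocin/AVP neurons that the authors annotated separately held more Avp in each library. Vip, the peptide of a distinct suprachiasmatic group, had a higher ratio to the other Neurons_1 nuclei than Avp (92.9 against 7.88). The nuclei picked below for a low Avp share (Avp-low) lay under oligodendrocytes in each library, but the choice itself lowers their Avp. Their Avp level therefore does not check the label. The label was not checked for single nuclei, of which 91, 100, 72 and 68 had no Avp UMI. The authors' name is used here for all nuclei of the sub-cluster, including those with Vip and little Avp. Because the authors clustered the nuclei on the same genes, the levels that follow are a description without a test. In counts per 1000000 UMIs of the sub-cluster (CPM), 15 of the 16 genes of a suprachiasmatic list stood above the other Neurons_1 nuclei, the lowest library of the sub-cluster lying above the highest library of the others. Of 11940 genes at 5 CPM or more, 13% did so. The sub-cluster also ranked highest of the 18 neuronal and glial sub-clusters compared for 13 of the 16.

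Among the peptides of that list, Vip was at 141 CPM in WT 1, 790 in WT 2, 121 in TRα1+m 1 and 380 in TRα1+m 2, against 3.85 in the other Neurons_1 nuclei. Nms, which encodes neuromedin S, was at 29.5, 57.0, 30.7 and 56.0 CPM in the same order, against 0.88. Prok2, the secreted clock output prokineticin 2, was at 30.3, 64.0, 36.9 and 71.6 CPM, against 1.82. All 3 peptide genes were higher in both libraries of repeat 2 than in those of repeat 1, in both genotypes.

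Vipr2, the VIP receptor by which suprachiasmatic neurons are kept in phase, was at 172, 167, 161 and 185 CPM against 3.68 in the other Neurons_1 nuclei. Rgs16, a regulator of G protein signalling, was at 64.5, 70.0, 57.1 and 82.5 CPM against 3.65. Rorb, which encodes an orphan nuclear receptor of the clock, was at 2783, 1695, 2789 and 1794 CPM against 203, the lower values being those of repeat 2. The transcription factor gene Zfhx3 was at 2005, 1847, 1927 and 1951 CPM against 708.

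**Figure D1:**
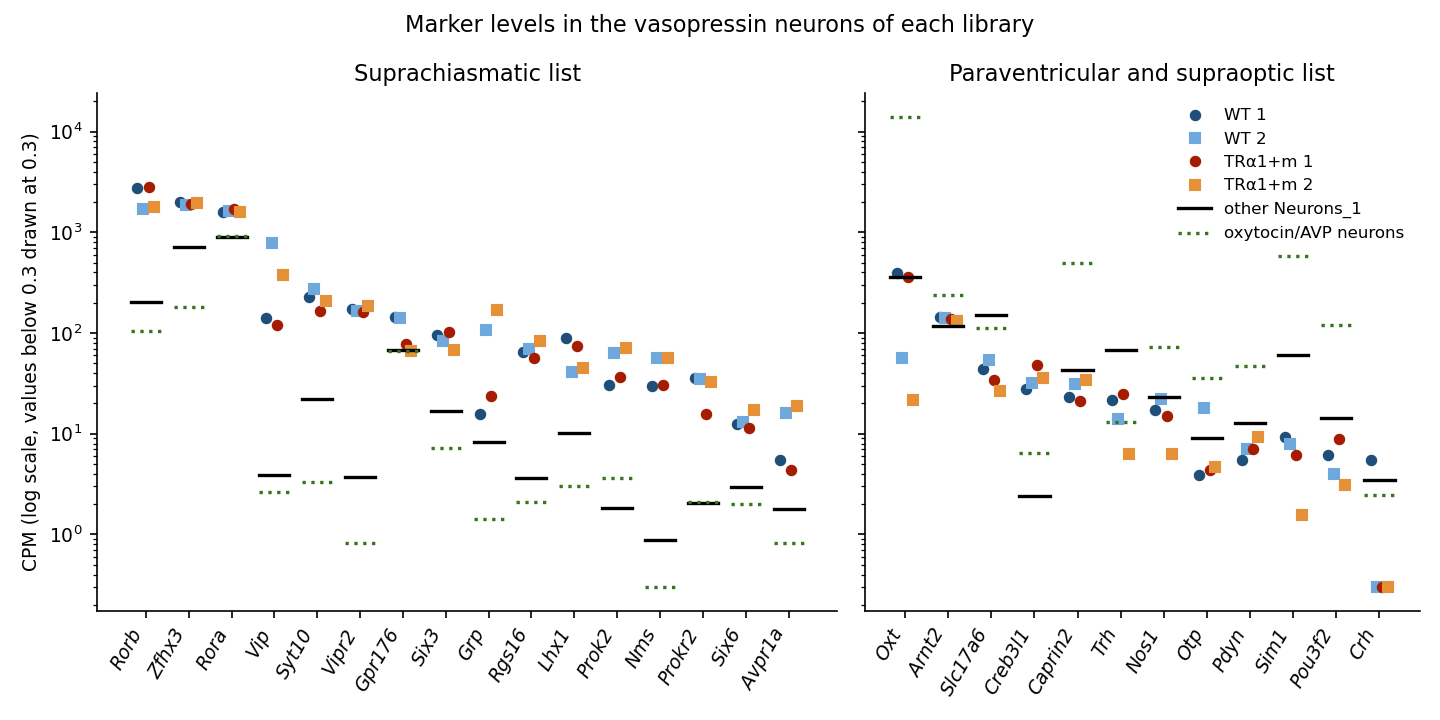
Level in CPM (log axis) of each gene of the suprachiasmatic list (left) and of the paraventricular and supraoptic list (right) in the vasopressin neurons, 1 point per library, with the mean over libraries in the other Neurons_1 nuclei (black line) and in the oxytocin/AVP neurons (dotted green line). The points stand above the black line for all suprachiasmatic genes but Gpr176, while Sim1 and Pou3f2 stand below it.

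Of the 12 genes of the paraventricular and supraoptic list, 2, Arnt2 and Creb3l1, were above the other Neurons_1 nuclei by the same rule, a share near the 13% of all genes, and 5 were below, beside 12.3% of all genes. Sim1, the transcription factor that specifies paraventricular and supraoptic neurons, was at 9.33, 8.0, 6.15 and 1.56 CPM, against 585 in the 366 oxytocin/AVP neurons that the authors annotated separately. Oxt was at 391, 56.0, 364 and 21.8 CPM, against 382 in oligodendrocytes, which do not make oxytocin, and 13963 in the oxytocin/AVP neurons. Creb3l1, a transcription factor that drives Avp transcription, went the other way, with 28.0, 32.0, 48.3 and 35.8 CPM against 6.39 in the oxytocin/AVP neurons.

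The neurons carried the transcripts of GABA synthesis and little of those of glutamate transport. Gad1 was at 137, 189, 142 and 171 CPM and Gad2 at 201, 223, 184 and 193, against 69.0 and 147 in the other Neurons_1 nuclei. Slc17a6, the vesicular glutamate transporter, was at 43.5, 54.0, 34.3 and 26.5 CPM against 152. Of the 22 clock genes listed, 14 were above the other Neurons_1 nuclei by the rule used above, beside 13% of all genes. Below them was 1, Nfil3, beside 12.3% of all genes. Rora and Rorb were on both the clock and the suprachiasmatic list. Per2 was at 57.5, 112, 71.1 and 107 CPM against 11.2, Per1 at 27.2, 35, 39.5 and 54.5 against 8.64, and Arntl, whose protein pairs with CLOCK, at 77.8, 92.0, 97.5 and 106 against 49.0.

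The 20 genes with the highest ratio to the other Neurons_1 nuclei were picked among genes of at least 50 CPM in each library. They were led by Vip, the long noncoding RNA gene 9330185C12Rik, Sh2d4b, Gm20658, Vipr2 and Prr5l. Gm20658 is an antisense gene that lies within the bounds of Vipr2. Avp itself came in the 19th place. Kcnc2, a Kv3 channel of fast-spiking neurons, was at 1472, 1669, 1589 and 1561 CPM against 488. Of the peptide processing genes, Pcsk2, a prohormone convertase, was at 946, 730, 815 and 711 CPM against 401, and Cadps2, which primes dense core vesicles, at 909, 938, 777 and 668 against 264. The thyroid hormone receptor gene Thrb was lower than in other neurons, at 98.0, 73.0, 61.5 and 66.9 CPM against 228, while Thra was at 108, 120, 87.8 and 94.9 against 96.0. The R384C mutation changes the receptor protein, so the Thra level does not check the genotype labels.

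Avp reached 1117 CPM in WT 1, 4653 in WT 2, 1240 in TRα1+m 1 and 5159 in TRα1+m 2. The oxytocin/AVP neurons held more, with 5923, 36626, 6964 and 36207 CPM. In oligodendrocytes, which do not make Avp, the level was 614, 285, 542 and 152 CPM, and the part of free RNA in it was not tested. The 2 repeats did not overlap in either class of cells, and they stood in opposite order, with repeat 2 the higher in vasopressin neurons and the lower in oligodendrocytes. Vasopressin neurons held 7.67, 14.3, 7.03 and 16.9% of the Avp UMIs of their libraries, and oxytocin/AVP neurons 17.4, 58.4, 23.1 and 56.9%.

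Avp UMIs were also found in nuclei of cells that do not make it. At least 1 Avp UMI was found in 76.5, 60.6, 80.3 and 61.1% of vasopressin nuclei, and in 57.3, 26.5, 56.2 and 19.0% of oligodendrocytes, whose median depths were 1493, 1811.5, 1516 and 1663 UMIs. With nuclei of both kinds thinned to 1500 UMIs the shares were 57.7, 51.8, 66.6 and 53.7% of vasopressin nuclei against 45.7, 22.3, 48.0 and 14.3% of oligodendrocytes. The difference between TRα1+m (70.7% ± 13.5, SD, n = 2) and WT (68.6% ± 11.3, SD, n = 2) was 2.12 percentage points (5.42 after thinning), with a two-sided exact permutation p of 0.667, where 2 pools against 2 cannot give less than 0.333. At 5 Avp UMIs or more, the shares were 24.7, 40.2, 26.0 and 44.0% of vasopressin nuclei against 1.16, 0.716, 0.475 and 0.425% of oligodendrocytes. The number of Avp UMIs per Oxt UMI was 2.85, 83.1, 3.41 and 237 in vasopressin neurons, against 0.834, 1.54, 1.06 and 1.66 in oligodendrocytes.

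Avp was spread unevenly among the nuclei of the sub-cluster. The 10% of nuclei with the most Avp UMIs held 46.0, 50.9, 42.7 and 52.9% of its Avp UMIs. The highest nucleus had 38 Avp UMIs in WT 1, 128 in WT 2, 30 in TRα1+m 1 and 154 in TRα1+m 2, while the median nucleus had 2, 1, 2 and 1. Nuclei with none and nuclei with many were both more frequent in repeat 2 than in repeat 1.

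**Figure D2:**
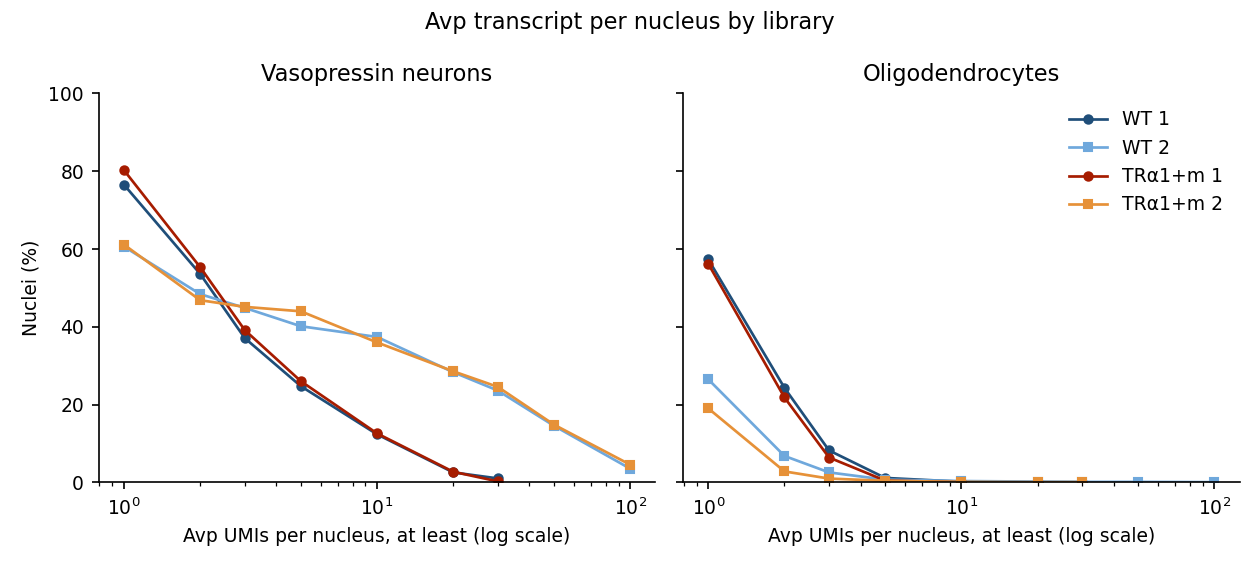
Percentage of nuclei with at least the given number of Avp UMIs (log axis) in vasopressin neurons (left) and oligodendrocytes (right), 1 line per library. At 1 UMI the repeat 1 libraries lie above those of repeat 2, and at 5 UMIs the order in vasopressin neurons is the opposite, with 24.7 and 26.0% in repeat 1 and 40.2 and 44.0% in repeat 2.

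To ask what else varied with Avp among these nuclei, within each library the 25% of vasopressin nuclei with the highest Avp share of UMIs (Avp-high) were compared with the 50% with the lowest (Avp-low), with Avp left out of the table and the library as a block. Avp-high nuclei numbered 97, 63, 91 and 43, with median depths of 2609, 3448, 2823 and 3151 UMIs, and Avp-low nuclei 194, 127, 182 and 87, with 3255.5, 3794, 2853 and 3685 UMIs. The lowest Avp-high nucleus had 3, 19, 3 and 21 Avp UMIs and the highest Avp-low nucleus 3, 1, 11 and 2. The nuclei between the classes were left out, so that the classes are ranges of 1 measure and not cell types. Avp-low nuclei held 192, 50.5, 250 and 57.0 CPM of Avp, below oligodendrocytes in each library (614, 285, 542 and 152 CPM). GABA neurons held 237, 95.5, 209 and 66.0 CPM. Avp-low nuclei were picked for low Avp, which lowers their level by itself. Of 6898 genes tested by edgeR's quasi-likelihood test, 812 (11.8%) passed a Benjamini-Hochberg adjusted p of 0.05, 331 higher (4.8%) and 481 lower (6.97%) in Avp-high nuclei. With every nucleus thinned to 1500 UMIs, 352 of 3852 genes (9.14%) passed, 321 of them shared with the 812. DESeq2 called 286, of which 277 were shared.

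The peptides of the 2 suprachiasmatic cell groups parted between these nuclei. In Avp-high nuclei Vip was at 3.54, 4.34, 10.9 and 63.9 CPM, from 14 UMIs in all, and in Avp-low nuclei at 220, 1196, 204 and 610 CPM, from 1127 UMIs. Every Avp-low value lay above every Avp-high value, and the fitted log2 fold change was -5.0 (SE 0.423, adjusted p = 2.59e-05 by edgeR). It was -3.97 without WT 2 and -6.22 without TRα1+m 2, and it passed with each library left out. Grp, the gastrin-releasing peptide of the light-receiving core of the nucleus, had 2 UMIs in Avp-high and 251 in Avp-low nuclei, a ratio of 53.5 for Avp-low over Avp-high (95% interval 14.7 to 444, counting error only). Its fitted log2 fold change ran from -8.74 without WT 1 to -4.77 without WT 2, values that depend on the few UMIs in Avp-high nuclei. After thinning, at least 2 Vip UMIs were found in 21, 37, 11 and 14 nuclei, and 1 of these 83 nuclei (1.20%, exact 95% interval 0.0305 to 6.53, pooled over the 4 libraries and covering counting error only) also had 5 Avp UMIs or more, a nucleus of TRα1+m 2. Among nuclei without a Vip UMI the share was 12.8, 41.8, 16.6 and 39.2% by library.

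Prok2 and Nms moved the opposite way to Vip. Prok2 was at 74.4, 113, 76.3 and 121 CPM in Avp-high and 14.4, 22.5, 16.7 and 48.4 CPM in Avp-low nuclei, a log2 fold change of 2.02 (SE 0.266, adjusted p = 6.03e-11 by edgeR) with no overlap between the classes. Nms was at 53.1, 148, 29.1 and 78.1 against 26.0, 22.5, 26.7 and 28.5 CPM (log2 fold change 1.48, SE 0.287, adjusted p = 2.85e-05 by edgeR), and its call was lost without WT 2 (0.84, adjusted p = 0.165).

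The stretches before the transcription starts of Avp, Prok2 and Vip are shown because these genes moved together or apart between the nuclei. Each holds the 250 bases upstream of the start in RefSeq's annotation of GRCm38.p6, read on the strand of the gene, at chr2:130582589-130582838 (minus) for Avp, chr6:99726393-99726642 (minus) for Prok2 and chr10:5638968-5639217 (plus) for Vip. Capitals mark the E-box CACGTG, the sequence bound by the clock proteins CLOCK and BMAL1.
Avp: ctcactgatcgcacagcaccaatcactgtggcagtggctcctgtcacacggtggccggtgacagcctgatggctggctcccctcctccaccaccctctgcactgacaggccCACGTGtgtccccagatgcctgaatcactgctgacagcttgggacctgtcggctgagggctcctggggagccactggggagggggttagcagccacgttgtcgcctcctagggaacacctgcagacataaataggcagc
Prok2: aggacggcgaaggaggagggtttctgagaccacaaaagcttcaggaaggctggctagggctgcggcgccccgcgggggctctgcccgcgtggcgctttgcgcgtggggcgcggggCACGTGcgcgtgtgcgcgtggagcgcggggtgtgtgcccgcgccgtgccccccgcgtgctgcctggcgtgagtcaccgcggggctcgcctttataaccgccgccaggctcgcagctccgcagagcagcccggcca
Vip: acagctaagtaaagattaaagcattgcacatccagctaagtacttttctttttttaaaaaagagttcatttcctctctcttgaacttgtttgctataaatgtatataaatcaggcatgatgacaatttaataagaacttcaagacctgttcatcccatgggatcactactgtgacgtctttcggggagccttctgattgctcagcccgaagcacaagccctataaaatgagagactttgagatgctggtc
The E-box began 139 bases before the start in Avp and 135 bases before it in Prok2, and these letters did not occur in the stretch before Vip. Nor did they occur before Nms or in either entry of Rorb, which also rose in Avp-high nuclei. It read the same on both strands and stood in 6.02% of 32851 RefSeq promoters of this length. Of the suprachiasmatic list, 15 genes had an entry and 1, Prok2, held it, and of the clock list 18 had an entry and 5 held it (Per1, Cry1, Tef, Bhlhe41 and Ciart). Neither the cAMP response element TGACGTCA (1.55% of promoters) nor the ROR element AGGTCA (14.0%, either strand) occurred in any of these 3 stretches. Only these exact letters were sought. The stretch before Vip holds TGACGTCT, which differs from the cAMP response element sought in its last letter alone. A match is a run of letters and was not tested as a binding site.

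Other genes of the suprachiasmatic list followed Avp as well. Of its 14 genes tested, 5 rose in Avp-high nuclei (Rorb, Prok2, Rgs16, Vipr2 and Nms) and 3 fell (Vip, Grp and Lhx1), beside 4.8% of all genes that rose and 6.97% that fell, with a median log2 fold change of 0.20 beside 0.03 over all genes tested. Rorb was at 4494, 2993, 4658 and 3047 CPM in Avp-high and 2029, 1039, 1787 and 1154 CPM in Avp-low nuclei (log2 fold change 1.35, SE 0.0969, adjusted p = 3.15e-29 by edgeR), the classes differing within each repeat and not overlapping. Vipr2 was at 223, 256, 222 and 192 against 143, 99.2, 135 and 151 CPM (0.78, SE 0.154, adjusted p = 2.84e-05 by edgeR) and Rgs16 at 106, 126, 102 and 163 against 50.5, 48.7, 38.4 and 45.6 CPM (1.37, SE 0.211). Lhx1, a factor needed for VIP expression and coupling in the nucleus, was lower by 0.77 on the log2 scale (adjusted p = 0.0168 by edgeR), a call lost without WT 1 (-0.85), TRα1+m 1 (-0.72) or TRα1+m 2 (-0.72) and after thinning (adjusted p = 0.150 by edgeR). By DESeq2 Vipr2 (adjusted p = 0.0904), Nms (0.111) and Lhx1 (0.595) did not pass.

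Of 19 clock genes tested, 7 rose with Avp and none fell, beside 4.8% of all genes that rose, with a median log2 fold change of 0.41. Rorb, the nuclear receptor gene, was on the suprachiasmatic list too and is counted in both. The others were Per1 and Per2, which encode repressors of the clock loop, and Nr1d1 and Nr1d2, which encode the REV-ERB repressors. Dbp and Hlf, which encode factors that bind D-box sequences, completed the 7. Hlf was at 170, 161, 276 and 263 CPM in Avp-high and 116, 107, 123 and 131 CPM in Avp-low nuclei (0.83, SE 0.158, adjusted p = 1.02e-05 by edgeR). Per2 was at 88.5, 130, 90.8 and 170 against 50.5, 91.7, 55.1 and 85.5 CPM (0.73, SE 0.201, adjusted p = 0.00466 by edgeR), higher in Avp-high nuclei of each library although the classes overlapped. The calls of Rorb and Hlf held with each library left out. Those of Per1 (0.91), Nr1d1 (1.02) and Dbp (0.72) were lost without WT 1, that of Nr1d2 (0.71) without WT 2, those of Nr1d1 (1.07), Nr1d2 (0.50) and Dbp (0.65) without TRα1+m 1, and that of Per2 (0.64) without TRα1+m 2. At 1500 UMIs per nucleus 2 of 13 clock genes tested passed, Rorb and Nr1d2, beside 9.14% of all genes. DESeq2 called Rorb and Hlf (adjusted p = 0.0492), and Per1 (0.287), Per2 (0.351), Nr1d1 (0.455), Nr1d2 (0.469) and Dbp (0.553) did not pass by it. Of 79 cytoplasmic ribosomal protein genes tested, 74 also had a fold change above 0 and 4 passed. The genes whose products act earlier in the loop, Arntl and Clock, had log2 fold changes of 0.23 (SE 0.199) and 0.31 (SE 0.148) that did not pass.

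**Figure D3:**
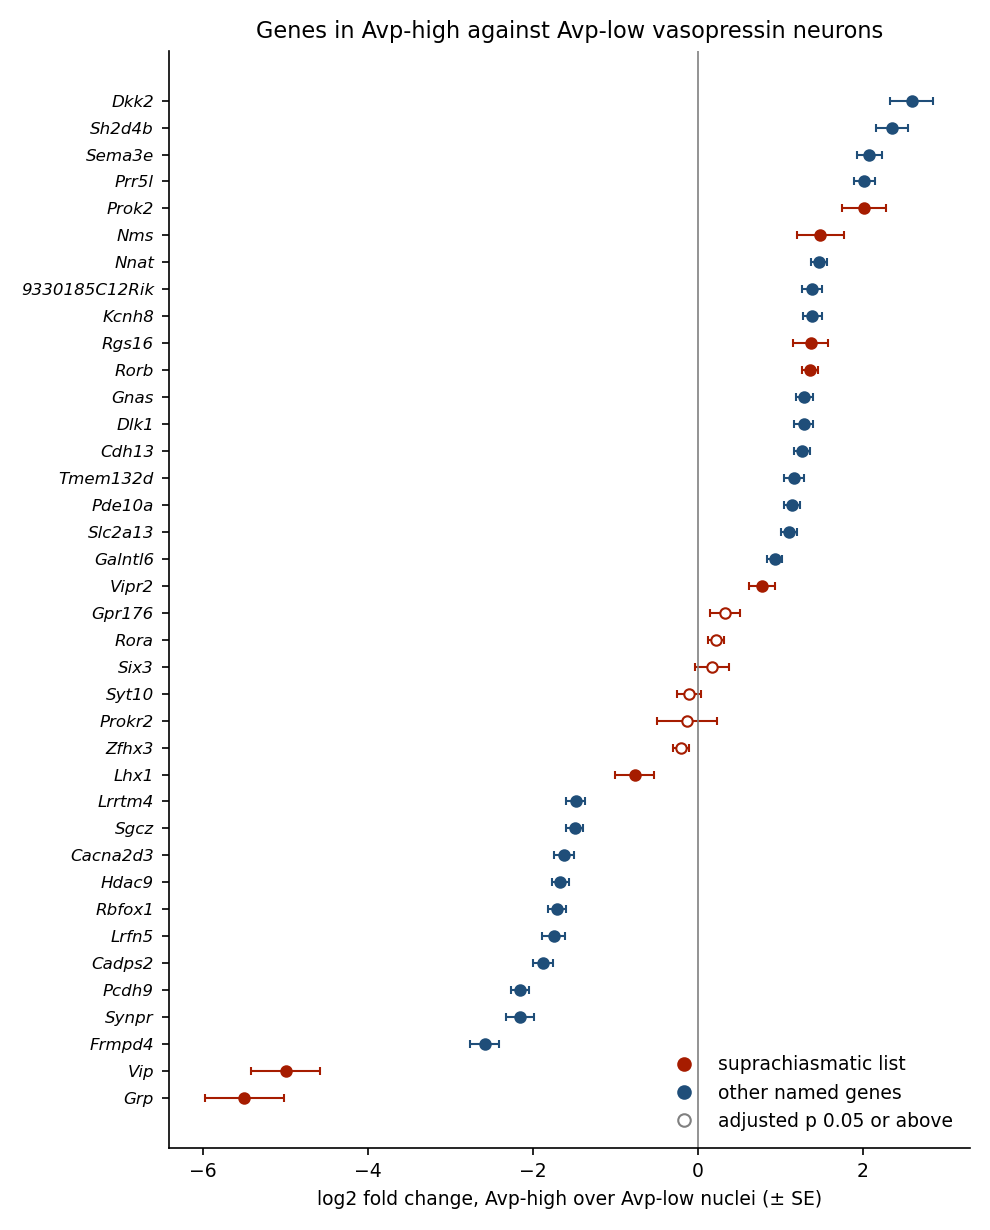
Log2 fold change of Avp-high over Avp-low vasopressin nuclei (edgeR fit with library as a block, bars are SE) for the 25 genes named by smallest p and for all tested genes of the suprachiasmatic list (red). Open points did not pass an adjusted p of 0.05. Vip and Grp stand farthest to the left, at -5.0 and -5.5, the latter resting on 2 UMIs in Avp-high nuclei, while Prok2, Nms, Rgs16, Rorb and Vipr2 stand to the right of 0.

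Outside the suprachiasmatic and clock lists, the genes highest by test in Avp-high nuclei were Prr5l, an mTORC2-associated gene (680, 860, 563 and 909 against 201, 178, 164 and 177 CPM, log2 fold change 2.02, SE 0.126), and Nnat, the imprinted gene of neuronatin (2967, 2672, 3241 and 3934 against 1092, 844, 1413 and 1297 CPM, 1.47, SE 0.0991). Nnat also stood on the list of ependymal and tanycyte markers, whose other 6 genes were each below 20 CPM in every library, and it was the most abundant of the 7. Gnas (1.29, SE 0.102), which encodes the stimulatory G protein alpha subunit, and Dlk1 (1.28, SE 0.115), imprinted like Nnat, were also among the 15. Sema3e (2.08, SE 0.148), a semaphorin gene, and Cdh13 (1.26, SE 0.101), a cadherin gene, rose as well, as did Kcnh8 (1.39, SE 0.114), a potassium channel gene, and Pde10a (1.14, SE 0.0966), a phosphodiesterase gene. The rest of the 15 were Sh2d4b, 9330185C12Rik, Slc2a13, Galntl6, Tmem132d and Dkk2, between 0.93 and 2.59. None of the 15 overlapped between the classes, but they were picked by smallest p, which favours this.

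Of the 10 genes named as higher in Avp-low nuclei, Pcdh9, a protocadherin, was at 3149, 4184, 2647 and 2855 CPM against 797, 765, 854 and 433 in Avp-high nuclei (log2 fold change -2.16, SE 0.113). Cadps2 was at 1177, 1252, 1120 and 992 against 351, 339, 269 and 284 CPM (-1.88, SE 0.122), with no overlap between the classes. Hdac9 (-1.67, SE 0.105), a histone deacetylase gene, Rbfox1 (-1.71, SE 0.113), a splicing factor gene, and Synpr (-2.16, SE 0.169), a synaptic vesicle gene, fell alike. The other 5 of the 10 were Frmpd4, Sgcz, Cacna2d3, Lrrtm4 and Lrfn5, between -2.59 and -1.48. Of 11 listed ion channel genes tested, Kcnc2 rose (1.14, SE 0.108) and Kcnd2, Kcnn2, Kcnq3 and Kcnd3 fell, between -1.42 and -1.01, beside 4.8% of all genes that rose and 6.97% that fell. All 5 passed also after thinning, beside 9.14% of all genes. The GABA genes Gad1 (0.00, SE 0.164) and Gad2 (-0.15, SE 0.149) did not pass, nor did any of the 10 tested genes for thyroid hormone receptors, transporters and cofactors.

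The repeat, which the study used as a biological replicate, was compared next within the same nuclei, with genotype as a covariate. Between repeat 2 and repeat 1, 883 of 10442 genes (8.46%) passed, 386 higher (3.7%) and 497 lower (4.76%) in repeat 2. DESeq2 called 65, all among the 883. With genotype in the fit few residual degrees of freedom remained. The SE and p that follow therefore draw mostly on a spread estimated across all genes and not on the pools of a single gene. The sources used here do not say how the repeats differed in handling, and such differences cannot be told apart from differences between the mice of the 2 repeats.

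Avp was higher in repeat 2 by 2.00 on the log2 scale (SE 0.105, adjusted p = 1.69e-75 by edgeR), in both genotypes. Vip rose by 2.05 (SE 0.136, adjusted p = 8.92e-47 by edgeR) and Grp, with 15.6, 107, 23.7 and 170 CPM, by 2.75 (SE 0.234). Prok2 (0.96, SE 0.236), Nms (0.85, SE 0.250), the vasopressin receptor gene Avpr1a (1.71, SE 0.489, at 5.44, 16, 4.39 and 18.7 CPM) and Per2 (0.73, SE 0.191) also rose, while Rorb (-0.74, SE 0.102), Lhx1 (-1.0, SE 0.227) and Nr1d1 (-1.30, SE 0.291) fell. In all, 5 of the 16 suprachiasmatic genes rose and 2 fell, and 1 of 20 clock genes rose and 2 fell, beside 3.7% of all genes that rose and 4.76% that fell. Rorb is counted among the falls of both lists. By DESeq2 Lhx1 (adjusted p = 0.643) and Per2 (0.891) did not pass, and Prok2, Nms, Avpr1a and Nr1d1 had no adjusted p. With genotype left out of the fit, Vip had an adjusted p of 0.0797 by edgeR. The rise of Vip was larger in WT (141 to 790 CPM) than in TRα1+m (121 to 380 CPM). Arntl, Clock and Cry1 did not pass (0.12, SE 0.185, 0.31, SE 0.143 and 0.15, SE 0.228).

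Of 14 peptide processing and dense core vesicle genes tested, 5 rose (Chga, Scg2, Scg5, Chgb and Pcsk1) and 1 fell (Pcsk2), against 3.7% of all genes that rose. By DESeq2 Scg5 (adjusted p = 0.0651), Chgb (0.463) and Pcsk2 (0.941) did not pass and Pcsk1 had no adjusted p, and with genotype left out of the fit Pcsk1 (adjusted p = 0.0517 by edgeR) and Pcsk2 (0.142) did not. Chga was at 154, 436, 170 and 437 CPM (1.37, SE 0.134) and Vgf, the precursor of several secreted peptides, at 118, 408, 162 and 671 CPM (1.86, SE 0.135). The vacuolar ATPase genes Atp6v0c (1.05, SE 0.111) and Atp6ap2 (1.21, SE 0.147), the transport gene Tmed2 (1.58, SE 0.195) and the chaperone gene Hsp90b1 (1.09, SE 0.136) stood among the 15 named, with Pgrmc1, Itm2c, Itm2b, Serinc1, Laptm4a and Scg2.

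The strongest falls were Oxt (391, 56.0, 364 and 21.8 CPM, -3.27, SE 0.175) and Mt3, a metallothionein gene (365, 94.0, 430 and 66.9 CPM, -2.32, SE 0.154). Oxt was lower in repeat 2 in oligodendrocytes too (737, 185, 513 and 91.5 CPM), where it lay above the vasopressin neurons in each library. The part of free RNA in the fall of Oxt was not tested. The other 8 named falls were Dbi and 7 ribosomal protein genes, Rps29, Rpl39, Rpl41, Rps21, Rpl37, Rps27 and Rps28, between -1.86 and -1.51. Of 81 cytoplasmic ribosomal protein genes, a list made after these values were seen, 44 fell and 3 rose, beside 4.76 and 3.7% of all genes. Among astrocyte markers, 3 of 6 tested fell (Gja1, Agt and Slc1a2), beside the same 4.76%, and the summed level of the 7 genes was 418, 351, 508 and 268 CPM, its most abundant gene being Slc1a2, with no marker at 0 throughout. Slc1a2 did not pass by DESeq2 (adjusted p = 0.968) or with genotype left out (0.0716 by edgeR), and Gja1 and Agt had no adjusted p by DESeq2. The part of astrocyte RNA in these differences was not tested.

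In GABA neurons Rps29 and Pgrmc1 stood in the same order between the repeats as in vasopressin neurons, and Avp and Vip in the opposite order. Rps29 was at 385, 143, 463 and 98.0 CPM in GABA neurons and Pgrmc1 at 162, 566, 179 and 749. Avp was lower in repeat 2 in GABA neurons (237, 95.5, 209 and 66.0 CPM), and so was Vip (4.67, 3.00, 4.00 and 2.06 CPM). Sst, a peptide of other neurons, showed the mirror image, with 103, 46.0, 100 and 28.0 CPM in vasopressin neurons and 105, 391, 113 and 390 CPM in GABA neurons. The difference of the repeat effect between the cell types was not tested.

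**Figure D4:**
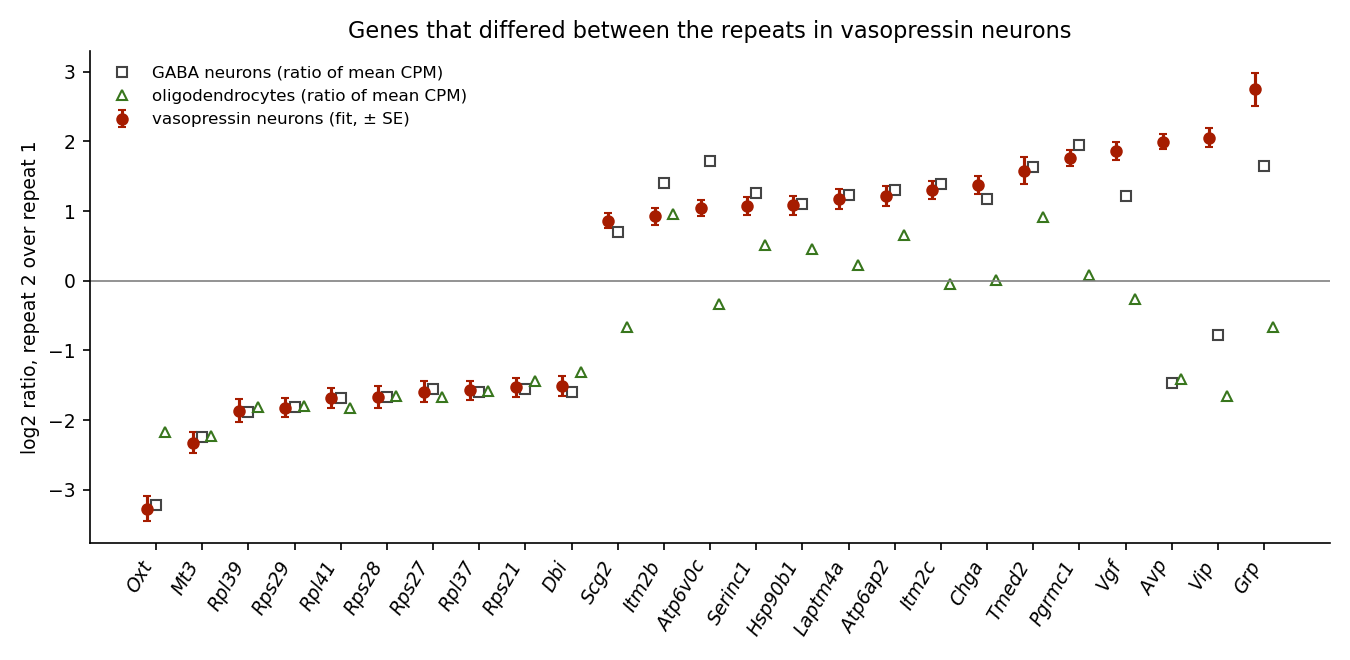
Log2 ratio of repeat 2 to repeat 1 for the 25 genes named in vasopressin neurons (red, edgeR fit with SE), with the ratio of mean CPM over the 2 libraries of a repeat in GABA neurons (squares) and oligodendrocytes (triangles), both without error bars. For the ribosomal protein genes the 3 symbols lie together below 0, and for Avp and Vip the red points lie near 2 and the other symbols below 0.

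For the question the study asked, whether perturbed thyroid hormone signalling alters these neurons, no gene passed when the libraries were compared without regard to the repeat, 0 of 10442 (0%), with 209 at an unadjusted p under 0.05 by edgeR and 29 by DESeq2, which also called 0. Without WT 1 or without TRα1+m 1 the count was 2. Avp did not pass, with a log2 fold change of 0.13 (SE 1.24, adjusted p = 1.00 by edgeR), which was -0.55 without WT 1 and -1.20 without TRα1+m 2. With the repeat as a block 38 genes passed (0.364%), 11 higher and 27 lower (0.259%) in TRα1+m. The genotypes did not overlap for 27.5% of all genes tested. DESeq2 with the same block called 1, Fhod3. The block leaves few residual degrees of freedom, so SE and p of the edgeR fit draw mostly on a spread estimated across all genes.

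Fhod3, a formin that builds actin filaments, was at 316 CPM in WT 1, 454 in WT 2, 143 in TRα1+m 1 and 181 in TRα1+m 2. Both TRα1+m pools lay below both WT pools, with a log2 fold change of -1.27 (SE 0.206, adjusted p = 1.00 by edgeR) and of -1.25 with the block (SE 0.138, adjusted p = 5.84e-16 by edgeR). Kcnmb2, an auxiliary subunit of the large-conductance calcium-activated potassium channel, was at 108, 108, 51.8 and 46.7 CPM (-1.14 with the block, SE 0.203, adjusted p = 3.85e-05 by edgeR). Gpr176, an orphan receptor that sets the pace of the suprachiasmatic clock, was at 143, 140, 78.2 and 66.9 CPM (-0.98 with the block, SE 0.178, adjusted p = 7.47e-05 by edgeR). None of the 3 overlapped between genotypes.

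Vip was lower in TRα1+m within each repeat, but the repeats differed more than the genotypes. Its fold change with the block was -0.73 (SE 0.135, adjusted p = 9.77e-05 by edgeR), against -0.92 without it (SE 1.24, adjusted p = 1.00 by edgeR), and the main value became 0.73 without WT 2. The pair of values in repeat 1, 141 and 121 CPM, lay closer together than the pair in repeat 2, 790 and 380. The SE and p of the block fit do not measure this spread between the pairs, since they draw mostly on all genes. Of the 16 suprachiasmatic genes, Gpr176 and Vip were thus called lower with the block and none higher, beside 0.259% of all genes lower and 0.105% higher. The median was -0.01 over the 16 and 0.01 over all genes. None of 20 clock genes passed in either fit.

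The values that follow are from the fit with the repeat as a block, and without it the adjusted p of each was 1.00 by edgeR. AC149090.1, which lies on an unplaced scaffold, was higher in TRα1+m (327, 143, 657 and 563 CPM, 1.40, SE 0.127), as were Nnat (1638, 1383, 1975 and 2172 CPM, 0.43, SE 0.103), the cadherin gene Cdh8 (58.3, 51.0, 107 and 84.0 CPM, 0.79, SE 0.202) and the long noncoding RNA gene Gm30382 (23.3, 17.0, 50.1 and 59.1 CPM, 1.35, SE 0.274). Of 13 mitochondrial genes, mt-Co3 (-0.44, SE 0.101), mt-Atp6 (-0.42, SE 0.103) and mt-Co1 (-0.39, SE 0.103) were lower, beside 0.259% of all genes, and all 13 had a fold change below 0. None of 81 cytoplasmic ribosomal protein genes passed, and 68 had a fold change below 0. Prkca, a protein kinase C gene (656, 651, 435 and 468 CPM, -0.56, SE 0.116), and Kcnn2, a small-conductance potassium channel gene (193, 200, 130 and 134 CPM, -0.60, SE 0.151), were lower as well.

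Of the other genes called with the block, Mir670hg, Vgf, Sec22c, Styk1, Meis2 and Fabp7 were higher in TRα1+m, between 0.59 and 2.06 on the log2 scale. Lower were Pdzrn4, Epha3, Pcdh9, Nts, Fut9, Gm29478, Ptgds, Zfp536 and Kirrel3, with Snx25, Chchd10, Tesk2, Zbtb20, 9530036O11Rik, Cox5a, Dlgap1 and Unc13c, between -1.70 and -0.43. Nts, which encodes the peptide neurotensin, was at 58.3, 8.0, 13.2 and 9.34 CPM, with WT 1 the high library.

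A transcript of other neurons was lower in TRα1+m in these nuclei. Pmch, the melanin-concentrating hormone precursor, was at 498, 724, 386 and 366 CPM in vasopressin neurons (-0.68 with the block, SE 0.119, adjusted p = 2.62e-05 by edgeR). The mean over the libraries in oligodendrocytes was 693 CPM, which WT 2 exceeded, but the oligodendrocyte levels of single libraries are not given here. In WT 2, Pmch was at 2389 CPM in Avp-high and 236 CPM in Avp-low nuclei. The oxytocin/AVP neurons went the other way between genotypes, with Pmch at 189, 158, 223 and 244 CPM. The 7 peptide markers of other neurons summed to 981, 1081, 842 and 529 CPM, its most abundant gene being Pmch, with none at 0 throughout, and 1 of 7 tested passed with the block, beside 0.259% of all genes that fell. All 7 had a fold change below 0 in that fit, with a median of -0.62. The part of free RNA in the genotype differences was not tested. Gm42418, higher in TRα1+m with the block (88.6, 118, 100 and 356 CPM, 0.93, SE 0.170), overlaps a ribosomal RNA repeat and rested on TRα1+m 2.

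Thyroid hormone acts through nuclear receptors that switch target genes on when the hormone binds. Of the 20 genes for receptors, transporters and cofactors, 11 were tested and none passed in either fit, with a median log2 fold change of -0.19 beside 0.01 over all genes. Thra had a fold change of -0.34 (SE 0.197) and Thrb of -0.45 (SE 0.249), with an adjusted p of 1.00 each by edgeR. Of 13 known response genes, 5 were tested and none passed, with Klf9, which the receptor induces, at 64.5, 35, 40.4 and 28.0 CPM and overlapping groups. From the genes that the study names in neurons, a list chosen on these same libraries and so no independent evidence, AC149090.1, mt-Co3 and mt-Atp6 passed with the block, and Oxt, Grm8 and Lrrtm4 did not.

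To ask which genotype differences of vasopressin neurons differed from those of other cells, the effect was compared with that in the 15042 GABA neurons of the same libraries through an interaction term, with the library as a block. Of 16600 genes, 13 (0.0783%) differed, 6 in the positive (0.0361%) and 7 in the negative direction (0.0422%), and DESeq2 called 0. A block for the repeat within each sub-cluster gave 22, which included all 13.

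Fhod3 differed by -1.16 (SE 0.136, adjusted p = 2.37e-13 by edgeR), where GABA neurons held 143, 142, 130 and 140 CPM. It was the one call of the 13 that remained with each library left out in turn. Kcnmb2 differed by -1.40 (SE 0.193), with 113, 71.5, 135 and 81.8 CPM in GABA neurons, and its call was lost without TRα1+m 1 (-1.04, adjusted p = 0.119). Gpr176 differed by -0.93 (SE 0.174), with 69.8, 77.4, 71.9 and 76.1 CPM in GABA neurons, a call lost without WT 1 (-0.83, adjusted p = 0.0834) or TRα1+m 2 (-0.81, adjusted p = 0.0763).

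Prkca (-0.52, SE 0.125), Zfp536 (-1.43, SE 0.321), Kirrel3 (-0.60, SE 0.125) and the long noncoding RNA gene Gm29478 (-1.34, SE 0.298) were also lower relative to GABA neurons. Mir670hg (1.08, SE 0.162), Cdh8 (0.89, SE 0.175), Gm30382 (1.18, SE 0.251) and Luzp2 (0.59, SE 0.135) were higher in both repeats. Adarb2 (0.75, SE 0.174) was higher in TRα1+m in repeat 1 only, with 51.3, 82.0, 112 and 70.0 CPM. For Oxt the difference of 0.88 (SE 0.151) lay in repeat 1, in which GABA neurons were at 511 and 222 CPM and vasopressin neurons at 391 and 364, and it was 0.04 without TRα1+m 1.

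Each of these 10 calls was lost on leaving out at least 1 library. Without WT 1 this held for Oxt (0.56), Cdh8 (0.90), Kirrel3 (-0.47), Gm30382 (1.09), Gm29478 (-0.97), Luzp2 (0.45), Adarb2 (0.38) and Prkca (-0.46). Without WT 2 it held for Cdh8 (0.86), Gm30382 (1.22), Zfp536 (-1.33), Luzp2 (0.70) and Prkca (-0.60). Leaving out TRα1+m 1 ended the calls of Mir670hg (0.47), Oxt, Cdh8 (0.79), Gm29478 (-1.0), Zfp536 (-1.33), Luzp2 (0.70), Adarb2 (0.35) and Prkca (-0.55), and leaving out TRα1+m 2 those of Kirrel3 (-0.51), Gm30382 (0.91), Zfp536 (-1.5), Luzp2 (0.48) and Prkca (-0.50).

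**Figure D5:**
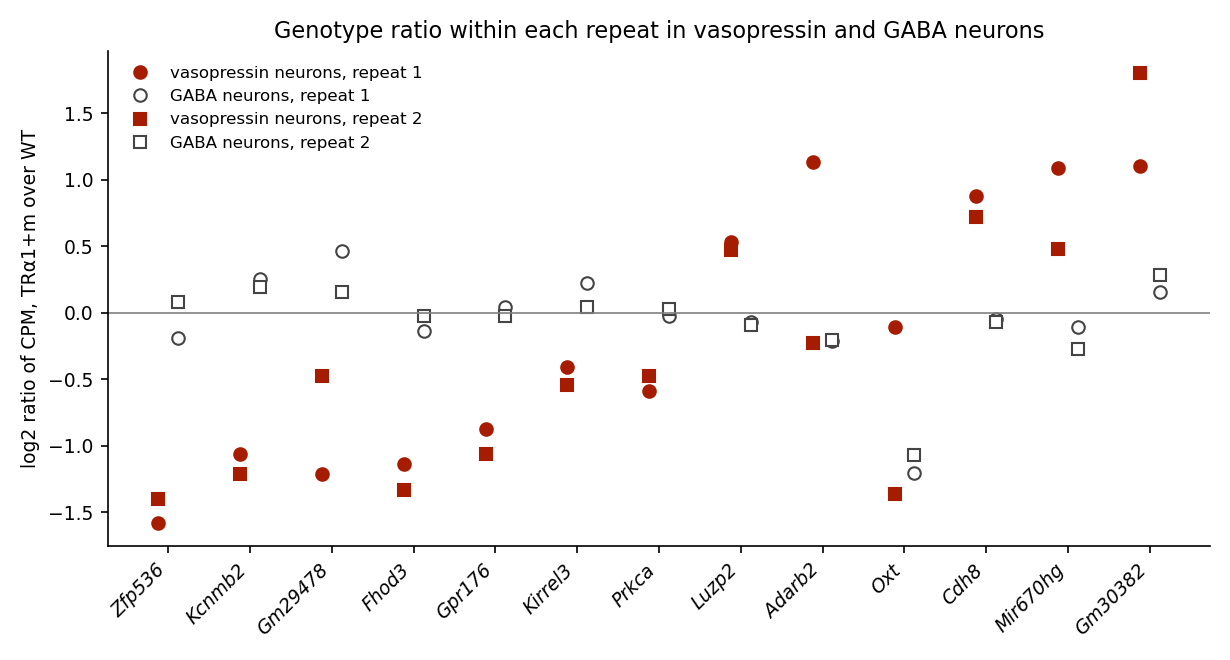
Log2 ratio of CPM, TRα1+m over WT, within repeat 1 (circles) and repeat 2 (squares) in vasopressin neurons (red) and GABA neurons (open), for the 13 genes whose genotype effect differed between them. For Fhod3, Kcnmb2, Gpr176 and Zfp536 both red symbols lie well below 0 and the open symbols near it, while the Adarb2 values of the 2 repeats lie on either side of 0.

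Against the 366 oxytocin/AVP neurons, which also make vasopressin, 5 of 9782 genes (0.0511%) differed in their genotype effect, 3 in the positive (0.0307%) and 2 in the negative direction (0.0204%), and DESeq2 called 0. The repeat block gave 36, and the count was 12, 13 and 9 without WT 1, WT 2 and TRα1+m 1. Kcnmb2 was lower in TRα1+m vasopressin neurons and higher in TRα1+m oxytocin/AVP neurons (173, 158, 235 and 228 CPM), a difference of -1.57 (SE 0.244, adjusted p = 0.00338 by edgeR) that was lost without TRα1+m 1 (adjusted p = 0.0595). For Fat3 (1.94, SE 0.232), Zfpm2 (1.3, SE 0.225), Alk (-1.3, SE 0.227) and Cdh18 (1.00, SE 0.196) the change lay mostly in the oxytocin/AVP neurons. Fat3, a giant cadherin, was at 547, 386, 196 and 58.6 CPM there and at 212, 162, 245 and 154 CPM in vasopressin neurons, and it alone of these 5 kept its call with each library left out. The calls of Zfpm2 (1.08) and Cdh18 (0.75) were lost without WT 1, that of Alk (-1.02) without WT 2, those of Zfpm2 (1.56), Alk (-1.04) and Cdh18 (1.11) without TRα1+m 1, and those of Zfpm2 (1.17) and Cdh18 (0.94) without TRα1+m 2. The genotype effect on Avp differed by 0.08 between the sub-clusters and did not pass.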

How the data were processed

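The authors aligned and counted reads with Cell Ranger 5.0.1 on mm10, introns included, filtered nuclei on depth, mitochondrial share and doublet score (scrublet), merged the libraries in Seurat and sub-clustered Neurons_1 after harmony correction for the repeat (tools from the study's methods and the submitters' processing notes). The deposited matrices hold raw counts, whole numbers of UMIs per gene (32285 genes) and barcode, and the deposited annotation gives each nucleus its library, cluster and sub-cluster. The annotation was used as it stands, without new clustering or doublet calls. The study's own tables of differential expression were not used here.

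Counts of the nuclei of a library were summed, and CPM are those sums per 1000000 UMIs. Sums were fitted with edgeR 4.0.16 in R 4.3.3 (filterByExpr, TMM, robust quasi-likelihood F-test, two-sided, Benjamini-Hochberg over all genes tested, 0.05), and the script was tested on simulated data. DESeq2 1.42.0, RLE factors, no low-count filter, nuclei thinned to 1500 UMIs or to 175 nuclei per library, other Avp thresholds and leaving out each library were alternatives. By the study's methods each repeat held a pool of each genotype and the repeats were treated as batches. Over 10442 genes, the deviations of same-repeat libraries from their genotype means correlated with r = 0.425 (Pearson, across genes, which are not independent replicates), hence the fits with the repeat as a block. In the fits with a block and in the repeat fit few residual degrees of freedom remained. Their SE and p therefore draw largely on a spread estimated across all genes, and less on the pools of the gene itself. Nuclei under 1500 UMIs were left out of thinned values, 10, 1, 15 and 0 by library.

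The study tested nuclei as replicates. Pools were the replicates here, since nuclei of a pool are not independent. Members, lists and tests were chosen with earlier results of these data known. Genes were named by list, by passing the threshold (up to 25, or the 10 of smallest p in each direction where fewer than 10 passed), as the 15 higher and 10 lower of smallest p for Avp-high and repeat, and as the 20 of highest ratio to other Neurons_1 nuclei. Genes named from the fit with the repeat as a block, other than these, were chosen after their values were seen. A gene of these lists is not reported here. Promoters came from RefSeq (GRCm38.p6). Genes with near-identical copies, such as ribosomal protein genes, are uncertain, since reads can be shared between copies.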

Additional observations from a re-analysis of the deposited data

Results flagged for a closer look

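The genotype effect (TRα1+m over WT, log2) differed between vasopressin neurons and another sub-cluster of the same libraries for the genes listed here, by the interaction term of edgeR's quasi-likelihood fit. Against GABA neurons the difference was -1.16 for Fhod3, -1.40 for Kcnmb2, 1.08 for Mir670hg, 0.88 for Oxt, -0.93 for Gpr176, 0.89 for Cdh8 and -0.60 for Kirrel3. It was 1.18 for Gm30382, -1.34 for Gm29478, -1.43 for Zfp536, 0.59 for Luzp2, 0.75 for Adarb2 and -0.52 for Prkca. Against oxytocin/AVP neurons it was 1.94 for Fat3, -1.57 for Kcnmb2, 1.3 for Zfpm2, -1.3 for Alk and 1.00 for Cdh18. DESeq2 called none of these differences. With 2 libraries per genotype, no library could be tested for lying far from the rest of its group.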

How the results depend on the processing

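Genotype calls in vasopressin neurons, 0 as reported, were 4 without a filter on low counts, 38 with the replicate block, 35 with the bias-adjusted fit and the block, 1 with DESeq2 and the block (both chosen after seeing the data), and 0 to 2 on leaving out a library. Differences from GABA neurons, 13, were 0 by DESeq2 (128 at an unadjusted p under 0.05), 22 with the block and 10 to 16 on leaving out a library. Differences from oxytocin/AVP neurons, 5, were 13 with RLE factors, 0 by DESeq2 (53 unadjusted), 33 without the filter, 36 with the block and 7 to 13 on leaving out a library. Avp-high against Avp-low calls, 812, were 286 by DESeq2, 352 in thinned nuclei, 690 for nuclei above against those below the median Avp share and 545 to 696 on leaving out a library. Repeat calls, 883, were 65 by DESeq2 and 486 with genotype left out of the fit, and leaving out a library could not be fitted, since no residual degrees of freedom remained. The cause of these differences was not tested.

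The log2 difference in the share of vasopressin nuclei ran from -0.44 to 0.0485 on leaving out a library, the positive value without WT 1. The difference in the share of vasopressin nuclei with an Avp UMI ran from -7.45 to 11.7 percentage points, negative without WT 2 (-5.84) or TRα1+m 1. With the replicate block they were -0.21 (adjusted p = 0.607 by edgeR) and 2.12, and apart from the genes counted above as 38, 22 and 36 the block changed no call, with all 13 and all 5 calls kept. The genotype change of Avp ran from -1.20 (without TRα1+m 2) to 1.43, also negative without WT 1 (-0.55), and that of Vip from -1.91 to 0.73. Library depth limits genes below a few CPM, and 2 pools per genotype limit every genotype comparison.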
